A study of Mus musculus with 6 samples.

Results

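The cells described here are type 2 conventional dendritic cells (cDC2) of mouse colonic tumours, taken as the barcodes of a droplet-based single-cell RNA experiment that met a rule on raw counts of unique molecular identifiers (UMIs). Members were chosen by their raw counts of the genes named next, after limits of 200 genes or more and no more than 20% mitochondrial UMIs per barcode. A member needed at least 10 UMIs of H2-Ab1 and Cd74 together, at least 3 of Cst3 and at least 1 of Flt3 and Cd209a together. It could hold no UMI of Xcr1, Clec9a, Ccr7, Cd3e, Cd79a or Epcam, and had to stay under 3 UMIs of C1qa, C1qb and C1qc together and under 3 of Arg1. Of 64505 deposited barcodes, 50875 passed the limits on genes and mitochondrial UMIs, and 412 of those were members. The libraries Apc ICI 1, 2 and 3 gave 26, 20 and 8 members, and AOM PN 1, 2 and 3 gave 58, 96 and 204.

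Whole colon tumours of male mice culled at clinical endpoint, 3 per group, were dissociated, cleared of dead cells by sorting on DAPI and made into 1 library each. Apc ICI tumours came from VilCreER Apcfl/fl mice, induced in the colon by 70 µl of 100 µM 4-OH tamoxifen given once into the submucosa. AOM PN tumours came from VilcreER P53fl/fl Notch1Tg mice given 2 mg of tamoxifen intraperitoneally and, from day 4, azoxymethane (AOM, a colon carcinogen) at 10 mg/kg each week for 6 weeks. Their group label is Ageing Tumor, and that of Apc ICI is Intracolonic Induction. Both models carry a Cre recombinase under the villin promoter (active in gut epithelium). Genotype, carcinogen and route of induction differed together between the groups and cannot be told apart. The labels do not give the age of the mice or say whether each library came from a different mouse, so p-values measure only the spread between these libraries.

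Conventional dendritic cells arise from Flt3-dependent progenitors, take up antigen and present it to T cells. The cDC2 branch depends on the transcription factor Irf4, carries Sirpa and lectins such as Clec10a, and is known in the gut for priming CD4 T cells, while the cDC1 branch depends on Irf8 and Batf3 and is known for cross-presentation to CD8 T cells. Monocytes that enter tissue can gain MHC class II and Cd209a, and plasmacytoid dendritic cells (pDC), which make type I interferon, share Flt3, so both can meet a rule of this kind.

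Library totals were 59309093 to 60075436 UMIs in Apc ICI against 87107277 to 98583066 in AOM PN. The sums over members held 352747, 332126 and 97073 UMIs in Apc ICI against 550867, 1144848 and 2230960 in AOM PN. Median UMIs per member were 12835.5 to 17013 in the Apc ICI libraries and 8452.5 to 10819.5 in the AOM PN libraries, so single members were deeper in Apc ICI. Any pair of libraries shared 10 to 52 barcode sequences, and 0 barcodes of members were shared. Member sums of a group differed by more than sampling noise (chi-square of 3.18 to 24.4 per degree of freedom over genes). Haemoglobin took 0.507% to 6.40% of the member sums in 5 libraries and 0.0122% in AOM PN 3, and without haemoglobin genes the numbers of called genes given below were the same.

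Transcripts of other cell types moved with the groups. The summed level of 10 mast cell markers in the member sums was 45.4 to 61.8 CPM (UMI counts scaled to a common total) in Apc ICI against 2378 to 19732 in AOM PN, with Fcer1a, Cpa3 and Tpsab1 at 0 in Apc ICI. For 10 neutrophil markers the sums were 319 to 1099.9 against 3148 to 4859.6 CPM, and the defining Ly6g had 0 UMIs in Apc ICI against 3, 0 and 1 in AOM PN 1, 2 and 3. For 10 T cell markers, a list that includes the called gene Cd8b1, they were 0 to 15.1 against 84.3 to 176 CPM. Cd8b1 alone gave 87.1, 94.3 and 37.2 CPM of these sums in AOM PN 1, 2 and 3. All its UMIs lay in the members with 2 or more UMIs of Siglech, described below. The summed level of 8 B cell markers was 18.1 to 147 against 59.6 to 145 CPM, with Pax5, Ebf1 and Ms4a1 at 0 and Ighm seen in every library. That of 7 plasma cell markers was 221 to 299 against 182 to 419 CPM, and the immunoglobulin gene Igkc had 2 UMIs in Apc ICI members and 220 in those of AOM PN, a ratio of pooled shares of 21.9 with an exact 95% counting interval of 5.99 to 182. The part of mast cell, plasma cell and T cell transcripts in the results was not tested, and for neutrophil transcripts values without the members that carry them are given.

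The rule's own genes chose the cells, so their levels carry no test. Cd209a, a lectin of the DC-SIGN family, stood at 348, 496 and 181 CPM in Apc ICI 1, 2 and 3, while AOM PN 1, 2 and 3 had 597, 622 and 652. Flt3, the receptor for the growth factor that sustains dendritic cells, stood at 91.9, 55.8 and 50.3 CPM against 106, 85.7 and 56.5. Each Apc ICI library was below each AOM PN library for Cd209a, and Flt3 overlapped. H2-Ab1, a chain of an MHC class II molecule, overlapped as well, at 5903, 9779.7 and 4804 against 4578, 3744 and 6529 CPM. Cd209a without Flt3 brought in 229 members, Flt3 without Cd209a 99, and 84 had both.

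The Flt3 and Cd209a criterion was the one with most barcodes at its edge. It was met by a single UMI in 106 members and by 2 or more in 306, while 1723 barcodes failed it alone. The members with a single UMI held Clec10a at 175 CPM, Mgl2 at 121 and Lyz2 at 4000.0, pooled, and the barcodes that failed held 23.5, 24.4 and 7460.3. At the other limits, 2 members sat at 3 UMIs of Cst3, 8 at 10 to 14 UMIs of H2-Ab1 and Cd74, and 2 at 2 UMIs of C1q genes. Outside, 27 barcodes were left out for 1 Ccr7 UMI, 51 for 1 UMI of Xcr1 and Clec9a, and 180 for a UMI of Cd3e, Cd79a or Epcam.

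Marker lists of several myeloid classes were seen in the members. A member showed a median of 8 of 16 cDC2 markers, with a range of 3 to 13, but the list holds Flt3, Cd209a, Cst3 and H2-Ab1, which the rule used, so part of that count was fixed by selection. The median was 5 of 13 monocyte markers, 3 of 16 macrophage markers, 3 of 15 mature dendritic cell markers and 2 of 14 cDC1 markers. The label thus rests on single genes that the rule did not use. Clec10a, a galactose-binding lectin that the rule did not use, had a UMI in 28.3% of members (116 of 410) after each was thinned to 1500 UMIs, against 0.158% in a T or NK cell gate (5 of 3167), cells that should lack it. Median depths before thinning were 8452 to 17013 UMIs in members and 4672 to 7722 in that gate, over libraries. Without thinning the share was 59.2%. Mgl2, its close copy, was seen in 20.2% and the chemokine Ccl17 in 16.8% of thinned members, against 0.126% and 0.158% in the T or NK gate. That gate shows background and cannot tell cDC2 from other myeloid cells. Clec10a did not set apart the pDC-marked members described below, which held it at a level close to that of the members with neither Siglech nor Ly6c2. Ccl17 is on the mature dendritic cell list. By mean CPM over libraries, without TMM scaling, it stood at 1315 in dendritic barcodes with a Ccr7 UMI and 475 in members. Clec10a stood at 81.2 and 320 CPM there, and Mgl2 at 122 and 269. How reads shared by close copies were counted is not given in the sources used here. Irf4 was seen in 5.85% of thinned members, below the 10.6% of the T or NK gate, where it is also used. Zbtb46, a transcription factor of conventional dendritic cells, had 15 UMIs in Apc ICI against 69 in AOM PN, or 19.2 against 17.6 CPM pooled.

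A distinct minority of members carried the pDC programme. Of 12 pDC markers, 374 members showed 4 or fewer, 9 showed 5, 1 showed 6, 0 showed 7 and 28 showed 8 or more. These 28 lay in Apc ICI 1 (2), AOM PN 1 (5), AOM PN 2 (14) and AOM PN 3 (7), and each had 2 or more UMIs of Siglech, a receptor of pDC. Members with 2 or more Siglech UMIs numbered 31, and Ly6d, a further pDC marker, stood at 6054 CPM pooled over them. It stood at 1.10 CPM in members with 2 or more UMIs of the monocyte antigen gene Ly6c2 and under 2 of Siglech, and at 0.574 in those with neither. In the same order, the homing receptor Ccr9 stood at 1247, 3.31 and 6.60 CPM and Irf8 at 1693, 109 and 121. H2-Ab1 ran the other way, at 757, 3015 and 6328 CPM.

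A further 78 members had 2 or more Ly6c2 UMIs without Siglech and were rich in monocyte transcripts. Lysozyme, Lyz2, stood at 7281 CPM in them, 982 in the 303 members with neither and 72.3 in the Siglech subset. Fibronectin, Fn1, stood at 439, 53.9 and 6.28 CPM in that order. Mgl2, Ccl17 and Timd4 were higher in the members with neither, with Mgl2 at 436 CPM against 30.9 in the Ly6c2 subset, Ccl17 at 502 against 93.9 and Timd4 at 179.9 against 23.2. Ccl2 was higher in the Ly6c2 subset, at 456 CPM against 142, and Clec10a stood at 346, 209 and 333 CPM in the Siglech, Ly6c2 and remaining members. Sirpa was close to even, at 97.4, 99.4 and 95 CPM in the Siglech, Ly6c2 and remaining members. These subsets were cut on UMI counts of the same cells, so their levels are a description with no test.

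**Figure D1:**
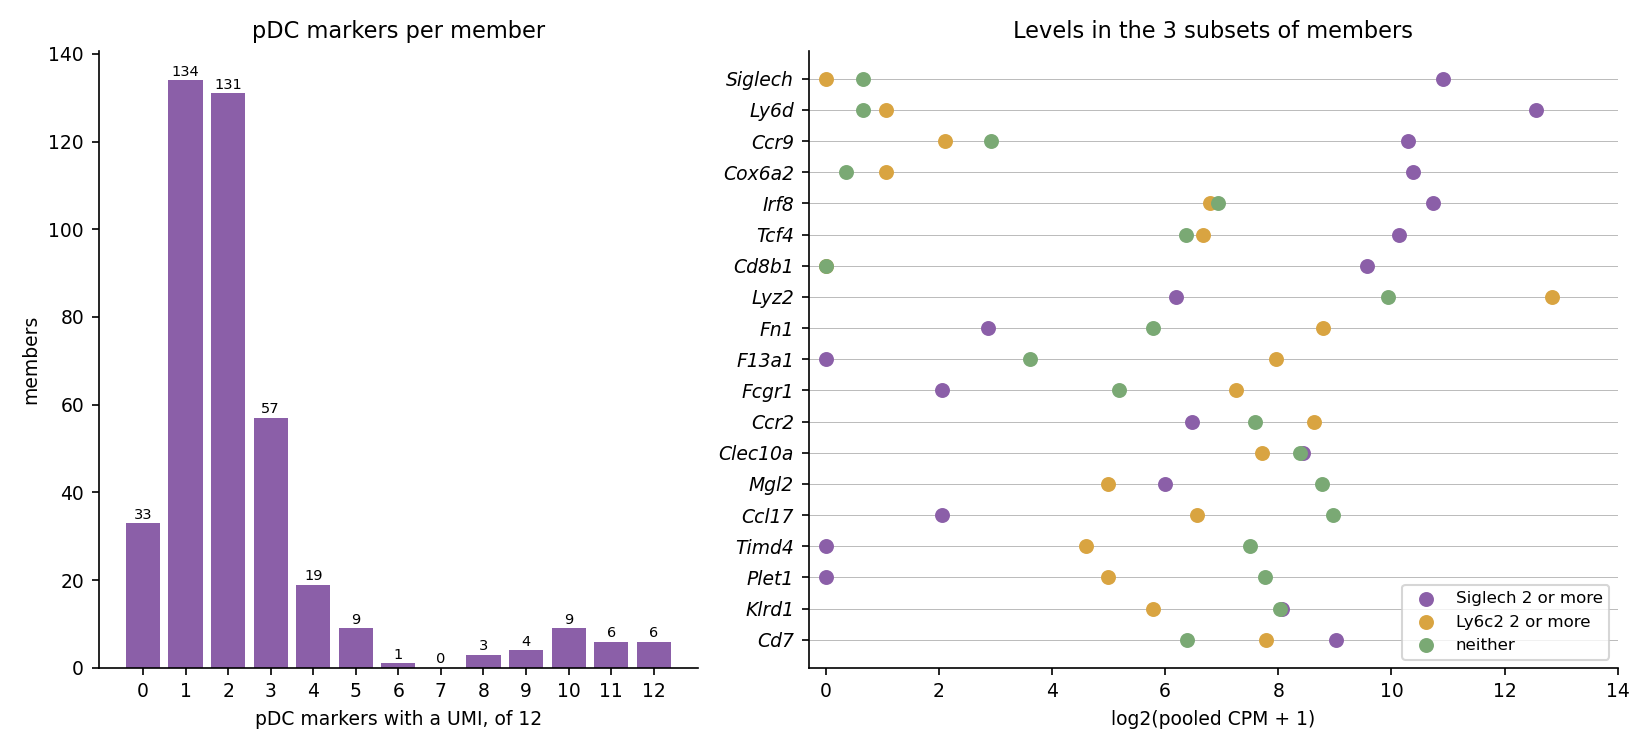
Left, the number of members by how many of 12 pDC markers had a UMI: 0 members had 7 and a separate set of 28 lies at 8 to 12. Right, levels of single genes as log2(pooled CPM + 1) in the members with 2 or more Siglech UMIs (31), with 2 or more Ly6c2 UMIs and under 2 of Siglech (78), and with neither (303): Siglech, Ly6d and Ccr9 stand out in the Siglech subset, and Lyz2 and Fn1 are highest in the Ly6c2 subset.

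The share of members did not separate the groups. Members were 0.520%, 0.273% and 0.153% of kept barcodes in Apc ICI 1, 2 and 3, while AOM PN 1, 2 and 3 had 0.497%, 1.08% and 1.60%. AOM PN 1 lay below Apc ICI 1, so the groups overlapped. The means were 0.315% ± 0.187 (SD, n = 3) and 1.06% ± 0.550 (SD, n = 3), with a two-sided exact permutation p of 0.2, where 0.1 is the smallest p that 3 against 3 allows. The difference was 0.744 percentage points, and 0.475 without AOM PN 3. Among barcodes gated as dendritic (members, cDC1 gate and Ccr7 gate together), members were 29.0% ± 4.12 in Apc ICI against 34.9% ± 6.21 in AOM PN (SD, n = 3 each, exact permutation p = 0.3). A rule on raw UMIs cannot tell fewer cells from less RNA per cell: applied after thinning each barcode to 1500 UMIs, it selected 0.266% ± 0.118 and 0.675% ± 0.430 (SD, n = 3 each, exact permutation p = 0.2).

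The make-up of the members varied between libraries of a group. The Siglech subset was 15.4%, 0% and 0% of members in Apc ICI 1, 2 and 3, while AOM PN 1, 2 and 3 had 10.3%, 14.6% and 3.43% (exact permutation p = 0.6). A count of 0 of 20 members in Apc ICI 2 allows a share of up to 15%, and 0 of 8 in Apc ICI 3 up to 37.5%. The Ly6c2 subset was 30.8%, 30% and 25% in Apc ICI against 25.9%, 27.1% and 10.3% in AOM PN (exact permutation p = 0.3). AOM PN 3, which gave the most members, had the lowest Ly6c2 share of the 6 libraries, and members with neither made up 86.3% of it.

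**Figure D2:**
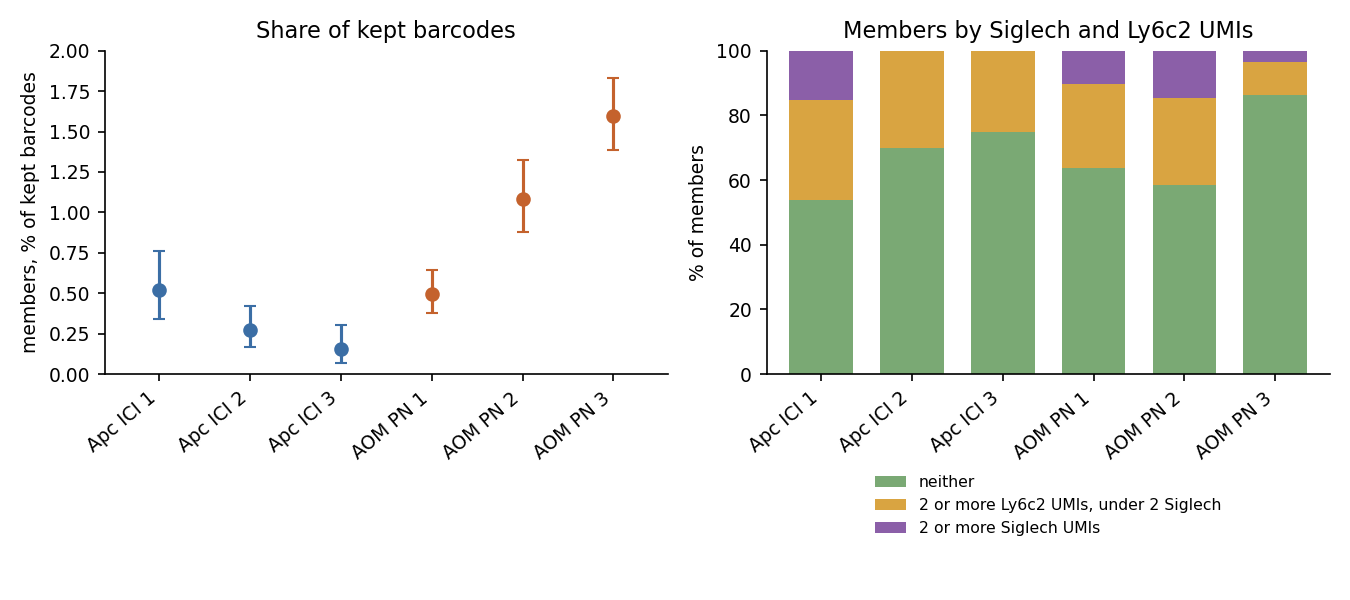
Left, members as a percent of kept barcodes in each library, with exact 95% binomial intervals that cover counting error only: Apc ICI 1 and AOM PN 1 lie at 0.520% and 0.497%, and AOM PN 3 is highest at 1.60%. Right, the members of each library by subset, as a percent of that library's members: those with neither Siglech nor Ly6c2 make up 53.8% to 86.3%.

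Members were next set against 3 related classes of the same libraries. These were gates on raw UMIs: a cDC1 gate (Xcr1 or Clec9a present), a C1q macrophage gate (3 or more C1q UMIs without Flt3 or Cd209a) and a monocyte gate (Ly6c2 and Ccr2 present without Flt3 or Cd209a). Sums were compared by edgeR's quasi-likelihood test with library as a block, at an adjusted p under 0.05, in libraries with 20 or more barcodes in both gates. Genes that either gate used were left out. Since the gates were cut on expression in the same cells, genes that go along with the gating genes differ by construction, and the counts below describe the gates.

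Against the cDC1 gate, in the 3 AOM PN libraries, 723 of 7008 genes were higher in members (10.3%) and 551 lower (7.86%). The number lower was 339 without AOM PN 1 and 353 without AOM PN 3. In members and cDC1, Clec10a averaged 275 and 38.8 CPM (log2 fold 2.78 ± 0.50 SE), Sirpa 94.3 and 15 CPM (log2 fold 2.68 ± 0.22 SE) and the fractalkine receptor Cx3cr1 52.0 and 3.91 CPM (log2 fold 3.49 ± 0.36 SE), higher in members in 3 of 3 libraries. Genes known from cDC1 were lower in members in 3 of 3 libraries: the double-stranded RNA sensor Tlr3 averaged 1.73 and 73.6 CPM (log2 fold -5.47 ± 0.34 SE), the integrin chain Itgae 22.4 and 235 CPM (log2 fold -3.44 ± 0.36 SE) and Batf3 64.4 and 221 CPM (log2 fold -1.74 ± 0.17 SE). Irf4 averaged 49.9 and 18.3 CPM and Irf8 282 and 821, and neither passed (edgeR adjusted p = 0.2 and 0.204). Transcripts of pDC were not confined to members. By mean CPM over libraries, without TMM scaling, Siglech stood at 136 in members and 149 in cDC1. Ly6d stood at 430 and 438 and Ccr9 at 92.9 and 108. Of the other pDC markers, Cox6a2, Runx2, Klk1 and Pacsin1 were also higher in cDC1, and Tcf4, Bst2, Spib, Upb1 and Smim5 higher in members. These cDC1 means cover AOM PN libraries only, while those of members include Apc ICI libraries, so they are not matched.

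Cell cycle genes were mostly lower in members than in cDC1, 19 of 23 tested with 0 higher, with a median log2 fold of -1.95 against 0.00 over all genes tested. Top2a, the topoisomerase of dividing cells, averaged 4.20 and 76.8 CPM in members and cDC1, and Pclaf, a partner of the replication clamp, 1.38 and 120.2. Of 22 NF-kB and AP-1 response genes, 16 were higher in members and 0 lower (median 0.90), and of 15 C-type lectins 8 were higher and 2 lower (median 2.11). MHC class II presentation had 1 of 10 higher, 2 lower and a median of -0.11. Mast cell protease transcripts were also higher in members, with Mcpt1 at 5061 and 319.9 CPM and Mcpt2 at 4565 and 309.8.

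Against the C1q macrophage gate, over 5 libraries (Apc ICI 3 had 8 members and was left out), 1058 of 8827 genes were higher in members (12%) and 1183 lower (13.4%). In members and macrophages, Clec10a averaged 311 and 24.2 CPM (log2 fold 3.69 ± 0.16 SE), the lectin-like receptor gene Klrd1 199 and 4.67 CPM (log2 fold 5.33 ± 0.22 SE) and Zbtb46 17.5 and 0.514 CPM (log2 fold 4.74 ± 0.48 SE), higher in 5 of 5 libraries. Other cDC2 markers went the other way by mean CPM over libraries, without TMM scaling. Sirpa stood at 95.3 CPM in members and 190 in macrophages, Itgam at 118 and 192, Itgax at 133 and 166 and Clec4a2 at 51.1 and 166. The lipid carrier Apoe averaged 163 and 12546 CPM (log2 fold -6.34 ± 0.69 SE) and the platelet factor gene Pf4 1.08 and 321 CPM (log2 fold -7.82 ± 0.29 SE), lower in 5 of 5. Of 23 cathepsin and lysosome genes, 20 were lower in members and 0 higher (median -1.27 against 0.01 over all genes tested). Glycolysis and hypoxia genes had 21 of 27 lower and 2 higher (median -0.77), and Fc and phagocytic receptors 18 of 26 lower and 4 higher (median -1.15). Dendritic cell transcription factors leaned the other way, with 20 of 40 higher and 6 lower (median 0.49). Ly6d averaged 429 and 7.31 CPM in members and macrophages and was higher in 4 of 5 libraries, and the Siglech subset held 1927 of the members' Ly6d UMIs, against 1 in the Ly6c2 subset and 2 in the rest.

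Against the monocyte gate, over the same 5 libraries, 1277 of 8260 genes were higher in members (15.5%) and 1410 lower (17.1%). In members and monocytes, Mgl2 averaged 261 and 4.82 CPM (log2 fold 5.94 ± 0.68 SE), Ccl17 452 and 3.14 CPM (log2 fold 6.35 ± 0.75 SE) and Irf4 42.8 and 3.26 CPM (log2 fold 3.60 ± 0.25 SE), higher in 5 of 5 libraries. Of the cDC2 markers, Sirpa, Itgam and Clec4a2 were lower in members by mean CPM over libraries, without TMM scaling. They stood at 95.3, 118 and 51.1 CPM in members and at 152, 321 and 129 in monocytes. The chitinase-like gene Chil3 averaged 15.5 and 699.7 CPM (log2 fold -5.70 ± 0.75 SE) and the matrix proteoglycan versican, Vcan, 11.4 and 239 CPM (log2 fold -4.37 ± 0.26 SE), lower in 5 of 5. MHC class II presentation had 8 of 10 genes higher in members and 1 lower (median 2.76 against 0.00 over all genes tested). Of 41 interferon-stimulated genes 20 were lower and 2 higher (median -1.01). Of 22 NF-kB and AP-1 genes 10 were lower and 1 higher (median -0.54).

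**Figure D3:**
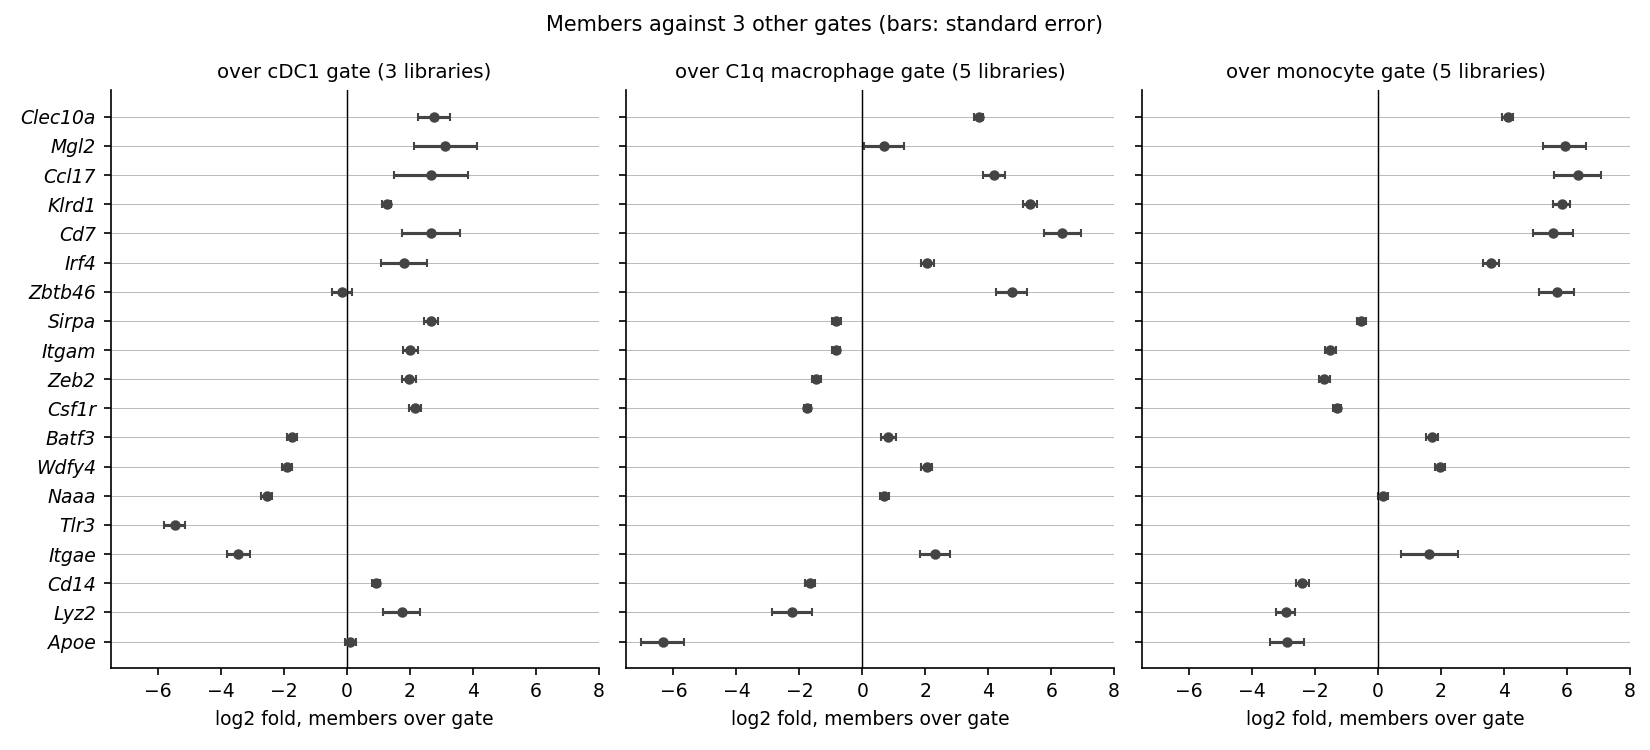
Log2 fold of members over each of 3 gates for single genes the gates did not use, with standard errors as bars (3 libraries for cDC1, 5 for C1q macrophages and monocytes); Tlr3 is shown against cDC1 alone. Clec10a lies right of 0 in all 3 comparisons, while Batf3, Tlr3 and Itgae lie left of 0 against cDC1.

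Between the tumour models few genes of the members were called. In simulated counts the same fit called 31.1% of 2-fold and 78.2% of 4-fold changes, so genes that changed can be missed. In edgeR's quasi-likelihood test on the 6 member sums with Benjamini-Hochberg adjustment, 12 of 4577 genes were higher in AOM PN (0.262%) and 2 lower (0.0437%), and 569 had an unadjusted p under 0.05. The higher genes were Ccl2, Timp1, Srgn, Sdc4, Il1rn, Actb, H3f3b, Ifrd1, Rpgrip1, Cd8b1, Timd4 and AY036118, and the lower ones Stmn1 and Dock10. The groups did not overlap for 904 genes (19.8%), higher in AOM PN for 9.57% and lower for 10.2% of genes tested. Counts without overlap in the gene lists below are to be read beside these shares. Levels below are CPM scaled by TMM factors.

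Promoter sequences were at hand for 10 of the 14 called genes, as 14 entries of 250 bases before to 50 after a start (RefSeq, GRCm38.p6). The AP-1 letters TGANTCA, searched on both strands, occurred in 1 of the 14 entries and in 7.81% of all 32851 promoters, and the NF-kB letters GGANTTTCC in 0 entries and in 1.25% of promoters. The 3 promoters below are of called genes for secreted or cell-surface products: Il1rn at the start that holds the match, Sdc4 and Timp1. Capitals mark the AP-1 letters, and each sequence runs 5′ to 3′ on the gene's strand (plus for Il1rn and Timp1, minus for Sdc4). A match is a run of letters, not a bound site. Other spellings of the AP-1 and NF-kB sites were not searched, so a count of 0 holds for these letters alone.
Il1rn, chr2:24336610-24336909: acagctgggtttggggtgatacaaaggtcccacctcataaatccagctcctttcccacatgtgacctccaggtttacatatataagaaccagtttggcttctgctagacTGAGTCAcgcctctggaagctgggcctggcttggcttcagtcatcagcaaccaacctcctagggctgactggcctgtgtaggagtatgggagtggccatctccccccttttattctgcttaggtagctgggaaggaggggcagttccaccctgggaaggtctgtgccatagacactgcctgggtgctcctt
Sdc4, chr2:164443139-164443438: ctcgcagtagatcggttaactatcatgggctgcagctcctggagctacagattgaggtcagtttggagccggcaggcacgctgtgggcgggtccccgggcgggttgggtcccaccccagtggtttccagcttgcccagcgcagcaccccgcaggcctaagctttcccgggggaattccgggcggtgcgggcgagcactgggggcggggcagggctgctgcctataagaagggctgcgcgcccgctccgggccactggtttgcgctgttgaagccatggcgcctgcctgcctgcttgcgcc
Timp1, chrX:20869916-20870215: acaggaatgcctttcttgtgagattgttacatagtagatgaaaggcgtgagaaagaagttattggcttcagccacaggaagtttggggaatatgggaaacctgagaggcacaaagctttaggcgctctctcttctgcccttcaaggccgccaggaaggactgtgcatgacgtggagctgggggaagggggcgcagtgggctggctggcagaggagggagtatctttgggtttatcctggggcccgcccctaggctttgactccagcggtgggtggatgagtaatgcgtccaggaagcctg

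The secreted products Ccl2 (chr11:82035571-82037453) and Timp1 (chrX:20870166-20874735, GENCODE M21 on GRCm38) had the lowest p-values. Ccl2, the chemokine that draws Ccr2-bearing monocytes, stood at 8.35, 21.7 and 10.1 CPM in Apc ICI 1, 2 and 3, while AOM PN 1, 2 and 3 had 203, 242 and 273 (log2 fold 4.08 ± 0.33 SE, edgeR adjusted p = 0.000213). Timp1, an inhibitor of matrix metalloproteinases, stood at 5.57, 3.10 and 0 CPM against 203, 175 and 110.5 (log2 fold 5.33 ± 0.51 SE, edgeR adjusted p = 0.000681). Every AOM PN library was well above every Apc ICI library for both. Timp1 had 3 UMIs in Apc ICI against 503 in AOM PN, a ratio of pooled shares of 33.4 with an exact 95% counting interval of 11.4 to 162.

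In AOM PN both genes stood higher in the Ly6c2 subset than in the members with neither marker. Ccl2 stood at 597 CPM in AOM PN members of the Ly6c2 subset and 164 in those with neither, and at 26.7 and 9.94 in their Apc ICI counterparts. Timp1 stood at 258 and 109.7 CPM in AOM PN and at 0 and 5.97 in Apc ICI. In the Siglech subset of 31 members Ccl2 had 5 UMIs, or 15.7 CPM pooled, and Timp1 had no UMI.

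After thinning, a Timp1 UMI was seen in 12.1%, 13.8% and 9.80% of AOM PN members, in 3.85%, 0% and 0% of Apc ICI members (exact permutation p = 0.1) and in 0.284% of the T or NK gate. The Ccl2 share depended on depth: at 1500 UMIs it was 13.8%, 9.57% and 8.82% in AOM PN members with 0 in Apc ICI, at 2500 UMIs 20.7%, 11.7% and 12.9% against 0%, 10% and 12.5%, which overlap (exact permutation p = 0.2), and without thinning 31.0%, 20.8% and 20.1% against 7.69%, 15% and 12.5%. In the T or NK gate the Ccl2 share at 1500 UMIs averaged 4.43% ± 2.29 in AOM PN and 0.637% ± 1.10 in Apc ICI (SD, n = 3 each, exact permutation p = 0.2), and the part of such background in the result was not tested. By mean CPM over libraries, without TMM scaling, Ccl2 stood higher in the mast or basophil gate (564 CPM) and the monocyte gate (389.7) than in members (138). Without barcodes scored as doublets Ccl2 had a log2 fold of 3.62 and an edgeR adjusted p of 0.0512, and with Flt3 required of every member Timp1 had 5.22 and 0.311. Over the 19 alternatives with a value, the adjusted p (edgeR or DESeq2) ran from 1.79e-30 to 0.0512 for Ccl2 and, over 19, from 1.12e-28 to 0.311 for Timp1. Without members holding 3 or more UMIs of S100a8 and S100a9, the neutrophil genes, Ccl2 had 4.79 (edgeR adjusted p = 0.00088) and Timp1 5.67 (edgeR adjusted p = 0.00662).

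Il1rn, the antagonist of the interleukin 1 receptor, stood at 64.0, 83.8 and 40.2 CPM in Apc ICI against 443, 359 and 221 in AOM PN (log2 fold 2.32 ± 0.32 SE, edgeR adjusted p = 0.014), without overlap. The neutrophil gate held it at 1805 CPM and members at 219. Without the members holding S100a8 and S100a9 the log2 fold was 1.96 with an edgeR adjusted p of 0.0834, in a range of 2.49e-18 to 0.329 over 20 alternatives. Il1b, the cytokine it opposes, stood at 4194, 4521 and 4995 CPM against 8153, 5707 and 7168 and did not pass (log2 fold 0.62 ± 0.15 SE, edgeR adjusted p = 0.113), though the groups did not overlap. Of 8 cytokine genes tested 1 was called, 4 were higher and 0 lower without overlap, and the median log2 fold was 0.58 against -0.01 over all genes tested. Of these 8, 6 were mainly genes of another gate, with a level in members under 0.25 of that gate's.

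Timd4, a receptor for phosphatidylserine on dying cells, stood at 0, 3.10 and 30.2 CPM in Apc ICI against 110.2, 148 and 216 in AOM PN (log2 fold 4.89 ± 0.72 SE, edgeR adjusted p = 0.0401). It lay mostly in members with neither Ly6c2 nor Siglech, at 209 CPM in AOM PN and 7.95 in Apc ICI, and over those members alone it had a log2 fold of 4.72 (edgeR adjusted p = 0.0153). By mean CPM over libraries with 20 or more barcodes, Timd4 stood at 237 in the cDC1 gate and 162 in the Ccr7 gate, against 87.8 in members. Without the members holding S100a8 and S100a9 its edgeR adjusted p was 0.0756, in a range of 8.27e-26 to 0.195 over 20 alternatives. Cd8b1, the beta chain of CD8, stood at 2.78, 0 and 0 CPM against 102, 103 and 41.1 (log2 fold 5.76 ± 0.90 SE, edgeR adjusted p = 0.0378). All 240 Cd8b1 UMIs were in the Siglech subset, 1 of them in Apc ICI, a ratio of pooled shares of 47.6 with an exact 95% counting interval of 8.46 to 1888. That call rests on 31 pDC-marked members, 4 of them in Apc ICI, all from Apc ICI 1.

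Srgn (chr10:62493833-62527451), the core protein of a granule proteoglycan, stood at 1493, 2336 and 1939.8 CPM in Apc ICI against 5384, 5119.5 and 4762 in AOM PN (log2 fold 1.40 ± 0.17 SE, edgeR adjusted p = 0.00406), without overlap. By subset it stood at 2197 against 6309 CPM in the Ly6c2 members, 1732 against 4227 in those with neither and 2159 against 2389.7 in the Siglech members. By mean CPM over libraries, without TMM scaling, Srgn stood at 3585 in members and 14249 in the neutrophil gate. The mast or basophil gate held 7308 CPM, the monocyte gate 5886 and the T or NK gate 3935, and the other gates held less than members. The Srgn call held without the members holding S100a8 and S100a9, and the part of mast cell and monocyte transcripts was not tested. Sdc4, the heparan sulphate proteoglycan syndecan 4, stood at 80.8, 43.4 and 131 CPM against 459.8, 342 and 353 (log2 fold 2.34 ± 0.31 SE, edgeR adjusted p = 0.0112), again without overlap. Its thinned share was 37.9%, 29.8% and 28.9% in AOM PN members and 11.5%, 10% and 0% in Apc ICI members (exact permutation p = 0.1). In the T or NK gate the Sdc4 share was 22.4% in AOM PN and 30.1% in Apc ICI (means over libraries). The AOM PN members thus lay above the gate and the Apc ICI members below it. By mean CPM over libraries, without TMM scaling, Sdc4 stood at 254 in that gate and 238 in members. The gate is therefore no measure of background for Sdc4.

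The remaining calls were of cytoskeletal, nuclear and other genes. Actb (beta-actin) had a log2 fold of 0.76 ± 0.12 SE, H3f3b (the replacement histone H3.3) 0.89 ± 0.14 SE, Ifrd1 (a transcriptional co-regulator) 1.44 ± 0.22 SE and Rpgrip1 (a ciliary protein) 3.01 ± 0.49 SE, with edgeR adjusted p of 0.0193, 0.0193, 0.0193 and 0.0277. AY036118 (log2 fold 1.12 ± 0.20 SE, edgeR adjusted p = 0.0419) is an RNA gene that resembles ribosomal RNA in sequence, and its counts are uncertain, as are those of Actb and H3f3b, which have near copies. Dock10, a guanine nucleotide exchange factor, stood at 237, 267 and 241 CPM in Apc ICI against 129, 103 and 130.3 in AOM PN (log2 fold -1.05 ± 0.19 SE, edgeR adjusted p = 0.0485). Stmn1, a microtubule regulator of dividing cells, stood at 58.5, 65.2 and 50.3 CPM against 12.7, 10.5 and 20.3 (log2 fold -1.93 ± 0.34 SE, edgeR adjusted p = 0.0419), and its level was 447 CPM in the epithelial gate against 33.0 in members. Neither lower gene overlapped.

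**Figure D4:**
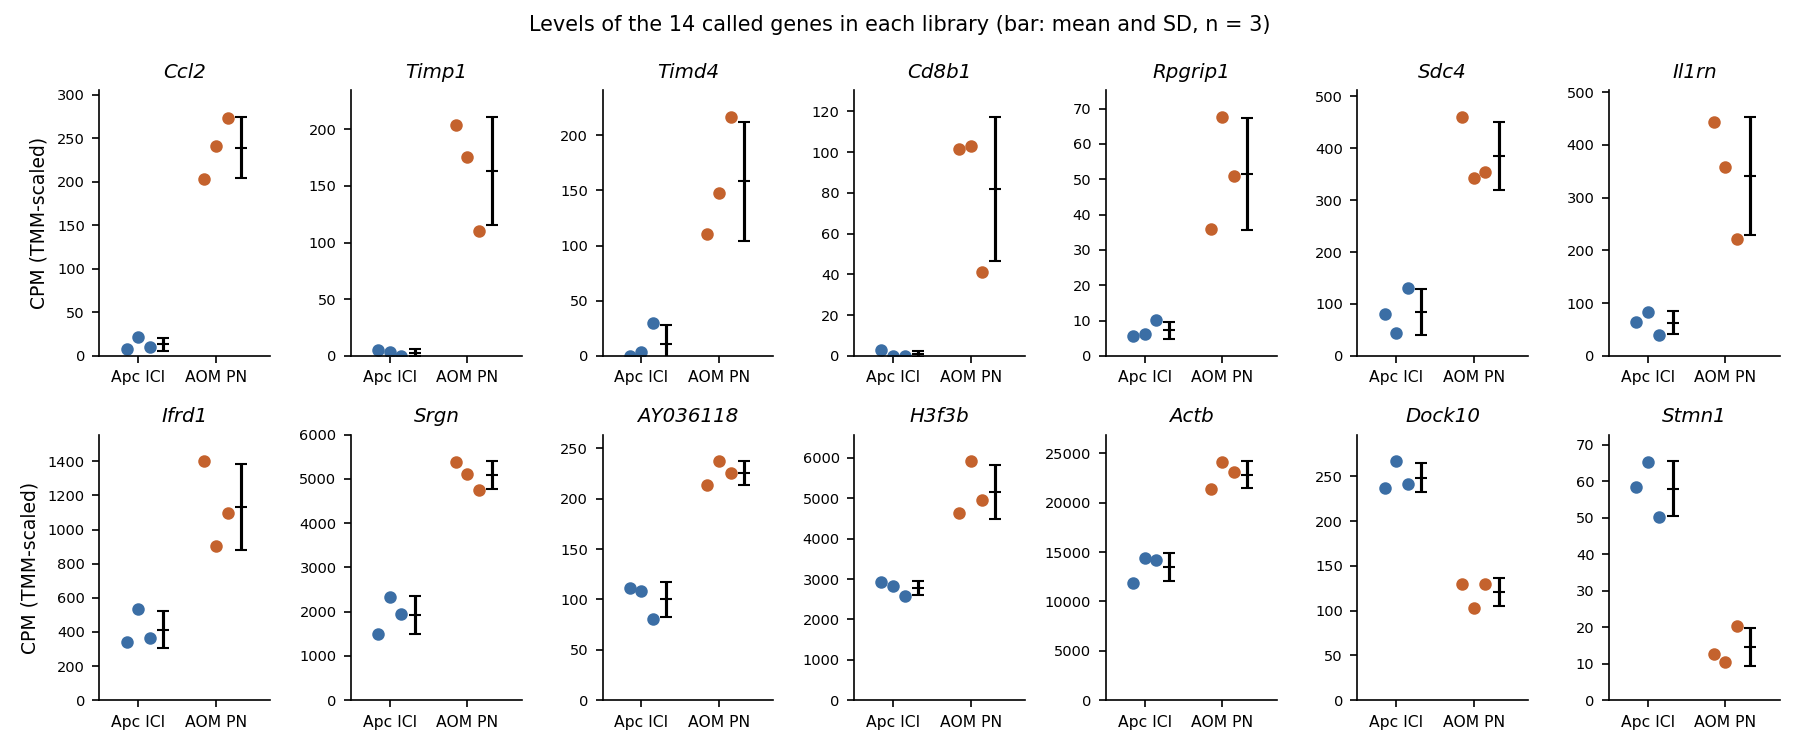
TMM-scaled CPM of the called genes in the member sums of each library, with the mean and SD of 3 libraries (SD bars end at the axis where they would pass below 0). For each gene shown, all AOM PN points lie on one side of all Apc ICI points, with Dock10 and Stmn1 lower in AOM PN.

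Leaving out 1 library at a time kept the calls of Ccl2, Timp1 and Srgn, with edgeR adjusted p up to 0.00675, 0.0165 and 0.0452. The other 11 genes each lost the call without at least 1 library, in fits where the arm of 2 is assumed to vary like the arm of 3. Without Apc ICI 1, the edgeR adjusted p was 0.0952 for Sdc4, 0.131 for Il1rn, 0.0952 for Actb, 0.0922 for H3f3b, 0.131 for Ifrd1, 0.168 for Rpgrip1, 0.241 for Cd8b1, 0.131 for Timd4, 0.149 for AY036118, 0.184 for Stmn1 and 0.161 for Dock10. Without Apc ICI 2, H3f3b, Rpgrip1, Cd8b1, Timd4, AY036118, Stmn1 and Dock10 had edgeR adjusted p of 0.0531, 0.114, 0.153, 0.195, 0.102, 0.164 and 0.153. Without Apc ICI 3, Il1rn, Actb, H3f3b, Ifrd1, Rpgrip1, Cd8b1, AY036118, Stmn1 and Dock10 had 0.0887, 0.137, 0.141, 0.141, 0.0887, 0.141, 0.137, 0.137 and 0.137 (edgeR adjusted p). Without AOM PN 1, Ifrd1, Cd8b1, Timd4, AY036118, Stmn1 and Dock10 had 0.0744, 0.0682, 0.0528, 0.105, 0.124 and 0.129 (edgeR adjusted p). Without AOM PN 2, Rpgrip1, AY036118, Stmn1 and Dock10 had 0.0527, 0.0884, 0.0884 and 0.123, and without AOM PN 3, AY036118 and Dock10 had 0.0504 and 0.0537 (edgeR adjusted p).

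The number of calls moved with single libraries too. The 12 higher genes became 7 without Apc ICI 1, 6 without Apc ICI 3, 23 without AOM PN 2 and 36 without AOM PN 3. The 2 lower genes became 1 without Apc ICI 1 and 0 without Apc ICI 3 or without AOM PN 1. With library totals in place of TMM factors, 9 genes were higher and 6 lower, and the median log2 fold over all genes moved from -0.01 to -0.17. The list medians below hold for TMM scaling, and a median between 0 and the size of that shift has no direction that both scalings share.

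MHC class II presentation genes leaned lower in AOM PN without a call. All 10 MHC class II presentation genes tested that the rule did not use had a log2 fold below 0 (median -0.42, from -1.02 to -0.03), and 2 of them, H2-DMa and March1, did not overlap. Over all genes tested, 10.2% were lower and 9.57% higher without overlap. H2-DMa, a chain of the peptide-exchange molecule, stood at 874, 828 and 784 CPM in Apc ICI against 583, 459 and 639 in AOM PN (log2 fold -0.57 ± 0.16 SE, edgeR adjusted p = 0.197). Ciita, the class II transactivator, had 160.5 ± 36.7 against 100.0 ± 33.8 CPM (SD, n = 3 each, log2 fold -0.58 ± 0.28 SE) and H2-Aa, the highest of the 10, 6506 ± 2792 against 6360.5 ± 1626 CPM (SD, n = 3 each), both overlapping. The 17 MHC class I genes had a median of -0.12, with 7 above 0 and 10 below, 0 called and 0 without overlap.

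Costimulatory genes split. Cd83, a maturation marker, stood at 251, 459 and 121 CPM in Apc ICI against 657, 606 and 739 in AOM PN (log2 fold 1.19 ± 0.37 SE, edgeR adjusted p = 0.249). Cd40, the receptor for T cell help, stood at 27.8, 6.21 and 10.1 CPM against 89.0, 54.3 and 54.5 (log2 fold 1.94 ± 0.46 SE, edgeR adjusted p = 0.113). Cd86, a ligand of CD28, ran the other way at 175, 233 and 201 CPM against 139.8, 152 and 169 (log2 fold -0.39 ± 0.19 SE, edgeR adjusted p = 0.435). These 3 genes did not overlap and did not pass. Of 12 tested genes of the list, 0 were called, 3 were higher and 1 lower without overlap, with a median of 0.20.

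Chemokines had the highest median of the 24 lists, 1.13 over 10 tested, with 1 called (Ccl2), 5 higher and 0 lower without overlap, and 7 of the 10 mainly genes of another gate. Cxcl16, a membrane-bound chemokine not among those 7, stood at 117, 164 and 181 CPM in Apc ICI against 212, 276 and 257 in AOM PN (log2 fold 0.74 ± 0.22 SE, edgeR adjusted p = 0.2). Ccl17, which draws Ccr4-bearing T cells, stood at 55.7, 1402 and 0 CPM against 248, 265 and 480.0. Apc ICI 2 held the highest and Apc ICI 3 the lowest Ccl17 level of the 6 libraries, so the groups overlapped (log2 fold -0.63 ± 1.5 SE, edgeR adjusted p = 0.928). The S100, alarmin and secreted myeloid list had a median of 0.63 over 18 tested, with 0 called, 7 higher and 1 lower without overlap and 7 mainly of another gate, beside the neutrophil marker sums given above.

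Stimulus-response lists leaned higher with 0 calls. NF-kB and AP-1 response genes had a median of 0.42 over 22 tested (4 higher and 1 lower without overlap, 12 mainly of another gate), and immediate early and heat shock genes 0.28 over 24 (4 higher and 0 lower). Jun, a component of AP-1, stood at 732, 711 and 754 CPM in Apc ICI against 1235, 1448 and 1135 in AOM PN and missed the threshold (log2 fold 0.80 ± 0.15 SE, edgeR adjusted p = 0.0515). Fos, its partner, overlapped at 1757 ± 319 against 1578 ± 187 CPM (SD, n = 3 each). Dendritic cell transcription factors had a median of 0.27 over 37 tested, with 5 higher and 0 lower without overlap (9.57% and 10.2% over all genes tested). Klf4, on which part of cDC2 development depends, stood at 323, 310.3 and 111 CPM against 536, 874 and 494 (log2 fold 1.27 ± 0.36 SE, edgeR adjusted p = 0.226), and Irf4 overlapped at 37.7 ± 5.80 against 53.2 ± 20.6 CPM (SD, n = 3 each, edgeR adjusted p = 0.529).

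Interferon-stimulated genes had a median of -0.18 over 28 tested, with 0 called, 3 higher and 1 lower without overlap (9.57% and 10.2% over all genes tested). The 3 were the membrane proteins Ifitm1 (log2 fold 1.03 ± 0.20 SE, edgeR adjusted p = 0.0639), Ifitm2 (0.73 ± 0.16 SE, edgeR adjusted p = 0.0831) and Ifitm3 (0.45 ± 0.13 SE, edgeR adjusted p = 0.197), which are close copies of each other. Ifitm1 stood at 2670.5, 1651 and 1849 CPM in Apc ICI against 3763, 3790.4 and 5068 in AOM PN. All 13 iron, haem and NRF2 genes tested had a log2 fold above 0 with TMM scaling (median 0.18), 3 of them without overlap and 0 called. Oxidative phosphorylation had a median of 0.07 over 30 tested and glycolysis and hypoxia 0.19 over 23, with 0 calls in each.

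The markers of cDC2 that the rule did not use were not called. Clec10a stood at 376, 413 and 201 CPM in Apc ICI against 279.7, 174 and 424 in AOM PN, Sirpa at 97.5, 99.3 and 90.5 against 82.6, 108 and 111 and Mgl2 at 117, 490.2 and 181 against 119, 101 and 588. These levels overlapped, and the log2 folds were -0.22 ± 0.36 SE, 0.07 ± 0.22 SE and 0.03 ± 1.01 SE. Plet1, a surface protein outside the lists that was named after its values were seen, stood at 281, 782 and 392 CPM in Apc ICI against 119, 128 and 100.1 in AOM PN, without overlap and past no threshold (log2 fold -2.09 ± 0.36 SE, edgeR adjusted p = 0.066).

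Whether the change between models was the same in members as in C1q macrophages was tested as an interaction over all 6 libraries. The change differed for 22 of 8804 genes, 13 with a higher log2 fold in members (0.148%) and 9 with a lower one (0.102%). In the macrophage gate alone 152 of 8518 genes were higher in AOM PN (1.78%) and 116 lower (1.36%). Of the 13, Sdc4, Cxcl3, Il1rn, Ccl2 and Lyz2 were also fitted in members alone, and the other 8 (Il4i1, Ccl22, Ifit1, Procr, Prkcb, Nek6, Adgre1 and Fam214a) did not pass the filter on low counts there. The difference was fitted jointly with library as a block, so it is not exactly the gap between the separate fits.

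Ccl2 had a log2 fold of 4.08 in members and 0.24 in macrophages, where it averaged 123 CPM in Apc ICI against 152 in AOM PN (difference 4.21 ± 0.58 SE, edgeR adjusted p = 0.0148). Sdc4 had 2.34 in members and 0.20 in macrophages (difference 2.31 ± 0.27 SE, edgeR adjusted p = 6.03e-05). Lyz2 had 1.73 and -0.40 (difference 2.16 ± 0.31 SE, edgeR adjusted p = 0.0188), the change in members not passing by itself (edgeR adjusted p = 0.197). On the other side, Ifitm1 had 1.03 in members and 2.45 in macrophages, where it averaged 294 CPM in Apc ICI against 1606 in AOM PN (difference -1.28 ± 0.20 SE, edgeR adjusted p = 0.00237). Cytip, an adaptor in leukocyte adhesion, had 0.00 in members and 1.23 in macrophages (difference -1.10 ± 0.20 SE, edgeR adjusted p = 0.0098). For Timp1 the difference did not pass (difference 4.58 ± 0.94 SE, edgeR adjusted p = 0.117), and for Srgn, which was called in both classes, neither did it (difference 0.58 ± 0.19 SE, edgeR adjusted p = 0.309).

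**Figure D5:**
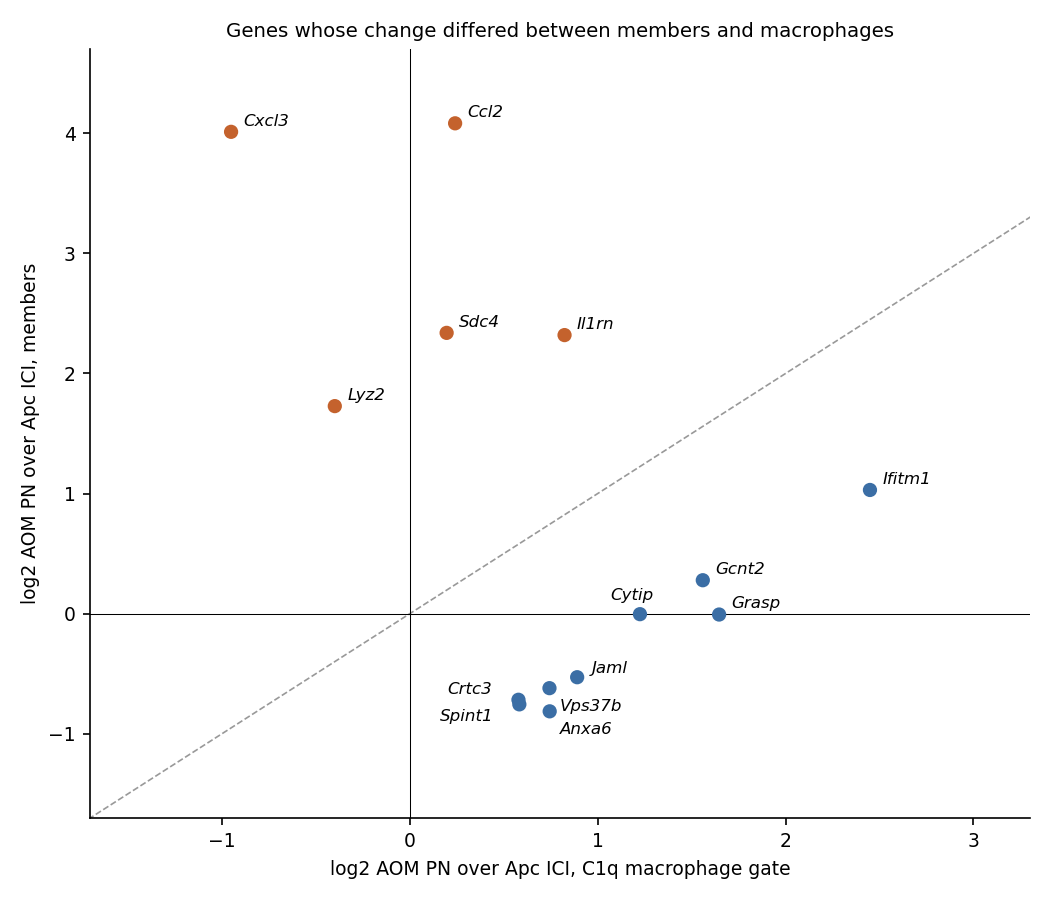
Log2 fold of AOM PN over Apc ICI in members against that in the C1q macrophage gate, for genes whose change differed between the classes and which were fitted in both. The diagonal line marks equal change: Cxcl3, Ccl2, Sdc4, Il1rn and Lyz2 changed more toward AOM PN in members and the other 9 genes less.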

How the data were processed

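Single-cell libraries (10x Genomics 3′ v3) were counted by the authors with Cell Ranger 6.1.2 against mm10, per the submitters' processing notes. The deposited matrices hold raw UMI counts for 31053 features, and 35 symbols were shared by more than 1 feature, which were kept apart by identifier. How multi-mapped reads and introns were treated is not given in the sources used here.

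Counts of the members and of each gate were summed per library. Sums were fitted with edgeR 4.0.16 in R 4.3.3 (TMM factors, filterByExpr, robust quasi-likelihood test), with Benjamini-Hochberg adjustment over all genes tested that the rule did not use and a threshold of 0.05. Single values were compared by exact permutation over libraries, since cells are not replicates. DESeq2 1.42.0 was an alternative. Barcodes with the highest simulated-doublet scores (nearest neighbours in principal components, scikit-learn 1.9.0) were kept in the main values and left out as an alternative. The fits were tested on simulated data. Binomial intervals, and the limits given where a count was 0, leave out all error but that of counting.

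Members and gene lists were chosen with earlier results of these data known. Genes were named where they belong to the rule or the cDC2 markers, where they were called with at least 20 CPM in the higher group and a level in members at least 0.25 of that in other gates, where they were called or highest in a list, or where they differed most from a gate at 50 CPM or more. Other genes called, without overlap, or used to define subsets were named after their values were seen.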

Additional observations from a re-analysis of the deposited data

Results flagged for a closer look

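The following 14 genes stood out because the log2 change from Apc ICI to AOM PN differed between members and C1q macrophages by a test of the difference itself (edgeR interaction over 6 libraries). They are those of the 22 passing genes that were also fitted in each class alone, and Adgre1 (7.86), Procr (5.37), Ccl22 (5.26) and Il4i1 (5.15) among the rest had wider differences. Adgre1 had 0 UMIs in the Apc ICI member sums and 26 in those of AOM PN, so the size of its difference is uncertain. A chemokine of the CXC family that attracts neutrophils, Cxcl3, had the widest gap of the 14: its change was 4.01 in members and -0.95 in macrophages, a difference of 4.78 ± 0.60 SE (edgeR adjusted p = 0.000127). Its Apc ICI member sums held 2 UMIs and those of AOM PN 136, a ratio of pooled shares of 13.5 with an exact 95% counting interval of 3.68 to 113. The change of Cxcl3 in members did not pass by itself (edgeR adjusted p = 0.0847). Its level was 27.7 CPM in members against 1319 in the neutrophil gate and 455 in the monocyte gate, and neutrophil markers were higher in AOM PN members; their part in the gap was not tested. The chemokine Ccl2 differed by 4.21 ± 0.58 SE, the proteoglycan Sdc4 by 2.31 ± 0.27 SE, the receptor antagonist Il1rn by 1.61 ± 0.28 SE and lysozyme Lyz2 by 2.16 ± 0.31 SE, with edgeR adjusted p of 0.0148, 6.03e-05, 0.00626 and 0.0188.

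The other 9 genes changed less toward AOM PN in members than in macrophages. The interferon-stimulated Ifitm1 differed by -1.28 ± 0.20 SE, Grasp (a scaffold protein) by -1.58 ± 0.26 SE, Cytip by -1.10 ± 0.20 SE and Gcnt2 (a glycosyltransferase) by -1.22 ± 0.25 SE. Anxa6 (an annexin) differed by -1.48 ± 0.31 SE, Vps37b (an ESCRT subunit) by -1.28 ± 0.23 SE and Jaml (an adhesion molecule) by -1.26 ± 0.27 SE. The protease inhibitor Spint1 differed by -1.20 ± 0.25 SE and Crtc3, a co-activator of CREB, by -1.19 ± 0.25 SE. For Anxa6 the change was -0.81 in members and 0.74 in macrophages, and for Grasp -0.01 in members and 1.65 in macrophages. Over these 9 genes the edgeR adjusted p of the difference ran from 0.00237 to 0.0468. Since the classes were gates cut on expression, a gene's change within each depends on which barcodes the gate held, and the part of that was not tested.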

How the results depend on the processing

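Of the 14 calls between the models, only Srgn held under every alternative that gave a value. Of 821 alternative values, 701 kept direction and side of the threshold (or moved within 1.5 times or the spread), 74 lost a threshold, 10 gained one, 35 moved further and 1 changed sign (AY036118, -0.030 after thinning to 1500 UMIs). Against 12 genes higher and 2 lower, DESeq2 gave 47 genes higher and 9 lower, no filter on low counts 218 genes higher and 31 lower, library totals without factors 9 genes higher and 6 lower and thinning 8 genes higher and 4 lower. With Flt3 required there were 2 genes higher and 1 lower, with Cd209a required 8 genes higher and 0 lower, without doublets 12 genes higher and 0 lower, without Ly6c2 or Siglech members 17 genes higher and 4 lower and without S100a8 and S100a9 members 6 genes higher and 1 lower. These subsets hold fewer cells, and thinning left 949 genes to test. Leaving out 1 library gave 6 to 36 higher and 0 to 2 lower. Of the 14 calls, 14 remained with DESeq2, 4 after thinning, 3 with Flt3 required and 5 without S100a8 and S100a9 members. For other moves the cause was not tested.

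Replicate numbers are shared between groups but are not said to pair libraries. Same-numbered libraries had correlations of -0.0265, -0.101 and -0.0379 of their deviations, and no library correlated best with its own number. With replicate number as a block, 50 genes were higher and 5 lower.

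After thinning, members against the cDC1 gate gave 160 higher and 87 lower of 1791 tested, against C1q macrophages 317 higher and 415 lower of 3757 tested and against monocytes 352 higher and 446 lower of 3124 tested. Leaving out 1 library gave 339 to 470 genes lower than in cDC1, against 551. The share difference kept its direction and an exact permutation p of 0.2 to 0.4 under all alternatives run. With 1 library left out, 0.2 is the smallest exact permutation p that 2 against 3 allows. Without Apc ICI 1 and without AOM PN 1 the shares of the groups did not overlap, and the exact permutation p was 0.2 in each. The interaction was not run for cDC1, where only 3 libraries reached 20 barcodes. The 8 members of Apc ICI 3 and 97073 UMIs limit what can be seen in genes of low level.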

Other observations

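Some genes known from dendritic cells and their neighbours did not pass the filter on low counts in the member sums, and were named after their values were seen. The eosinophil-attracting chemokine Ccl24 had 0 UMIs in Apc ICI against 817 in AOM PN, of which AOM PN 3 held 808. AOM PN 3 also held 197 of the Il4i1, 130 of the Il6, 329 of the Fcer1a and 45 of the Ccl22 UMIs given next for AOM PN. The amino acid oxidase gene Il4i1, a marker of mature dendritic cells, had 2 UMIs in Apc ICI against 236 in AOM PN, and the chemokine Ccl22, which draws Ccr4-bearing T cells, 5 UMIs in Apc ICI against 106 in AOM PN. For the cytokine gene Il6 the sums were 4 UMIs in Apc ICI against 154 in AOM PN. Fcer1a, the alpha chain of the IgE receptor and a mast cell marker, had 0 UMIs in Apc ICI against 405 in AOM PN. Member sums were 781946 UMIs in Apc ICI against 3926675 in AOM PN, so a gene at the same level in both would show more UMIs in AOM PN.

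Il22, a cytokine gene of innate lymphoid and T cells, had a UMI in 5 members. One member of AOM PN 2 held 834 Il22 UMIs among its 21757. The same barcode had 2 UMIs of Flt3, 0 of Cd209a, 50 of H2-Ab1, 8 of Il7r and 0 of Gata3.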
